A study of Mus musculus with 2 samples.

Results

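The transcripts of 39 amino acid transporter genes were examined in hair follicle stem cells. The genes were chosen by name, with earlier results of these data known, as carriers of the plasma membrane, the lysosome or the mitochondrion. All 39 were found among the 42392 gene IDs of the expression table, each on 1 ID. The RNA came from 1 library of sorted bulge cells from skin of female mice that carried the K15-CrePGR transgene, a Cre recombinase fused to the progesterone receptor under a keratin 15 promoter, and were Shh+/-. They had been given RU486, the ligand of that receptor, for 8 days, and the label calls the sample a control in anagen II-III, the early growth phase of the follicle. The other sample of the series shares the genotype, the sex and the treatment and was taken in telogen, the resting phase; its library was not analysed here. The number of animals pooled is not stated. The stage rests on a match of the column's name to the title of the sample alone. Cells were sorted as integrin alpha 6 high and CD34 positive, and as negative for SCA1 and for markers of non-epidermal cells.

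Amino acids cross membranes mainly through carrier proteins. At the cell surface, exchangers swap one amino acid for another, sodium-coupled carriers accumulate them, and uniporters let them pass down their gradient. Several exchangers of the SLC7 family are light chains that reach the surface only when bound by a disulfide bridge to a heavy chain of the SLC3 family. Carriers of the lysosome return amino acids from degraded protein and take part in nutrient sensing by mTORC1, and sideroflexins carry serine and other substrates into mitochondria. Many surface carriers are targets of ATF4, the transcription factor of the integrated stress response, which the series title names together with serine deprivation.

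Levels are in TPM, a measure of transcript abundance in which read numbers are divided by transcript length and scaled to a fixed total, so that levels can be set side by side between genes. With a single library there is neither an error nor a test for any value. The read depth is unknown, and values under 1 TPM, with the folds against them, may rest on few reads. In sorted cells measured in bulk, fewer cells of a type and less RNA per cell cannot be told apart. All 8 bulge markers were above 5 TPM, with Krt15 at 3364 TPM and Cd34 at 132 TPM. Markers of other cells were also present: the 7 suprabasal markers summed to 1314 TPM, 6 upper follicle and sebaceous markers to 282 TPM, 6 fibroblast markers to 879 TPM, 3 globin genes to 199 TPM, 6 melanocyte markers to 44.9 TPM, 6 leukocyte markers to 29.0 TPM and 4 endothelial markers to 8.76 TPM. No marker on these lists was at 0, but the sums hide uneven values. Suprabasal markers ran from Flg at 0.00794 TPM to Krtdap at 769 TPM, and upper follicle and sebaceous ones from 0.271 to 107 TPM. Fibroblast markers ran from Pdgfra at 1.44 TPM to Col3a1 at 287 TPM, and globin genes from 45.5 to 99.6 TPM. The range was 0.602 to 12.6 TPM for melanocyte, 0.102 to 13.2 TPM for leukocyte and 0.436 to 4.65 TPM for endothelial markers. The part of such other cells in the transporter levels was not tested.

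The transporters were expressed over a wide range, and a handful of genes held most of the signal. Slc3a2 at 279 TPM, Slc7a8 at 258 TPM, Slc38a2 at 179 TPM and Slc6a6 at 144 TPM were the 4 highest and together held 67.9% of the summed 1266 TPM. With Slc7a1 at 80.1 TPM, the 5 highest held 74.2%. At the other end, 13 members were under 1 TPM and together held 0.219%. At 1 TPM or more stood 26 of 39 members, or 66.7%, against 55.9% of the 20843 nuclear protein-coding genes. At 100 TPM or more stood 4 members, or 10.3%, against 3.48% of coding genes. At 5 TPM or more stood 22 members, or 56.4%, against 42.4%. All 39 members had a value above 0, as did 79.6% of coding genes. The median over all 39 members was 6.20 TPM, against 2.41 TPM over all coding genes. Among genes at 1 TPM or more, the members' median of 12.6 TPM lay beside 12.5 TPM for coding genes. Of the 26 members at 1 TPM or more, 13 reached the latter value and 13 were under it. Those 13 are 33.3% of all 39 members, against 28.0% of all 20843 coding genes. Just inside the filter of 1 TPM was Slc38a9 at 1.48 TPM, and just outside it was Slc43a1 at 0.961 TPM.

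**Figure D1:**
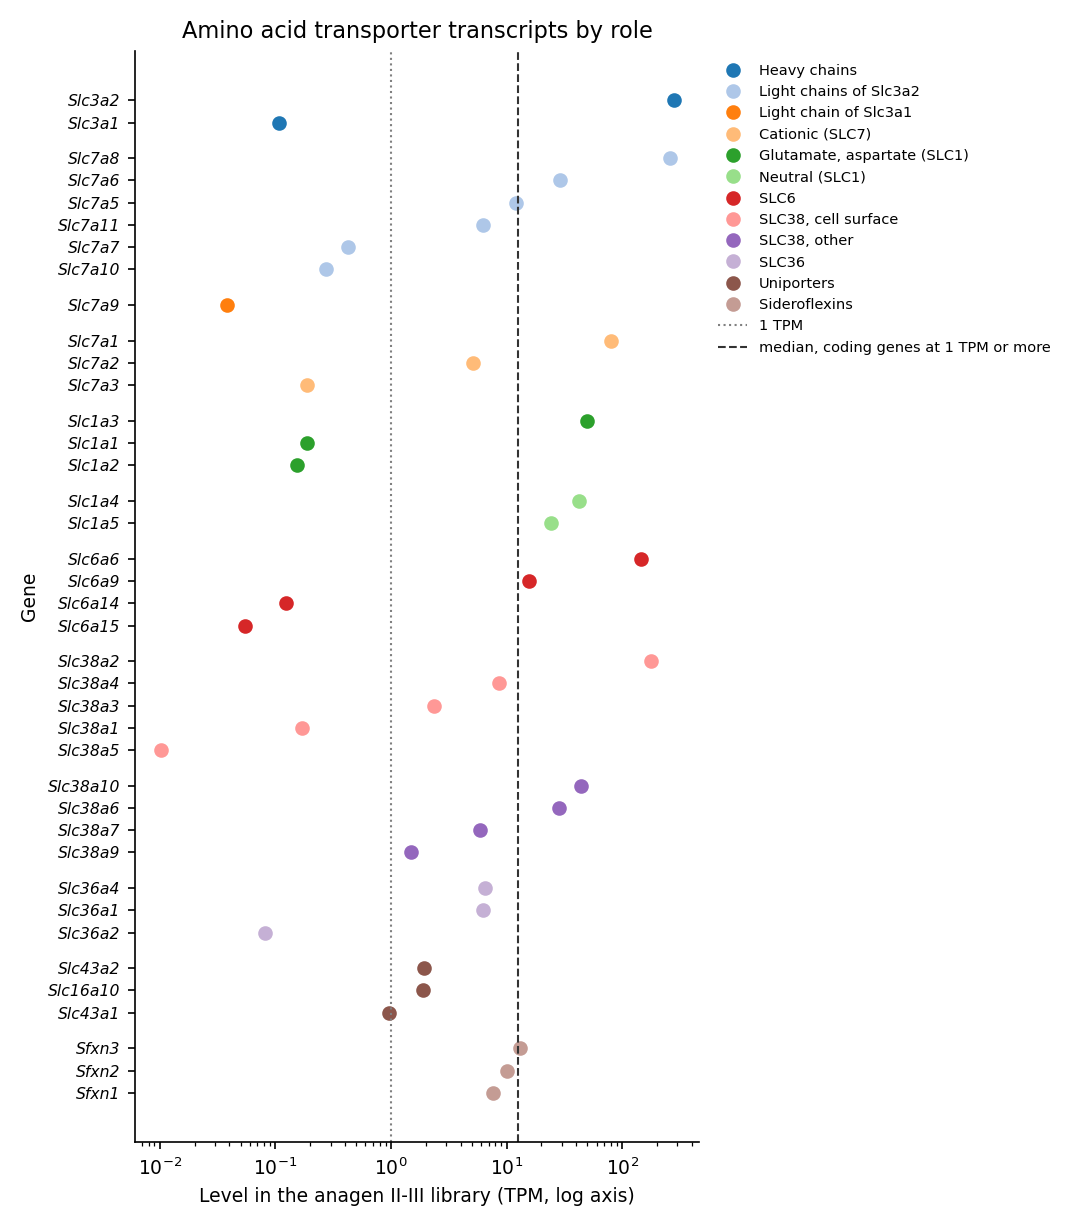
Level of each of the 39 transporter transcripts in the anagen II-III library, in TPM on a log axis, grouped and coloured by role, 1 point per gene; the dotted line marks 1 TPM and the dashed line the 12.5 TPM median of coding genes at 1 TPM or more. Slc38a2 and Slc38a5 of the SLC38 group lie at its opposite ends, while the 3 sideroflexins lie close together.

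**Figure D2:**
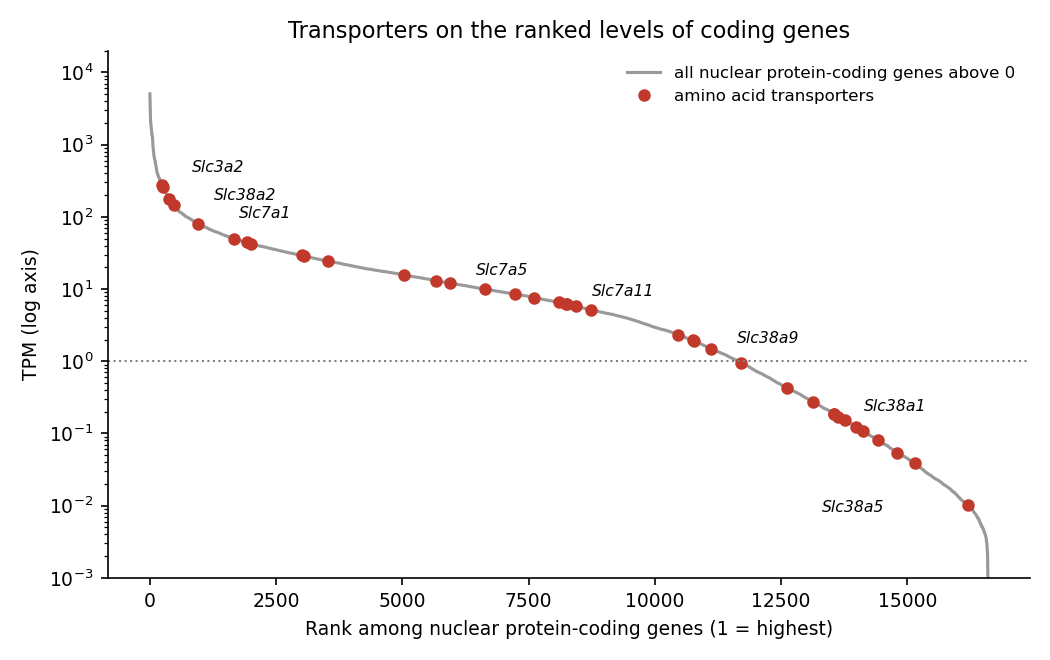
TPM on a log axis against rank for all nuclear protein-coding genes above 0 (grey line), with the 39 transporters as red points; the dotted line marks 1 TPM. The points run from Slc3a2 at rank 238 to Slc38a5 at rank 16200.

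The heavy chain Slc3a2 and the light chain Slc7a8 were nearly equal in level. Slc3a2, which encodes 4F2hc or CD98 and carries its light chains to the cell surface, stood at 279 TPM (ENSMUSG00000010095, chromosome 19, 8706882 to 8723369), above 98.0% of coding genes at 1 TPM or more. Slc7a8, the exchanger LAT2 of neutral amino acids, stood at 258 TPM (ENSMUSG00000022180, chromosome 14, 54722215 to 54781886). The ratio of the former to the latter was 1.08. Its relative Slc7a5, the exchanger LAT1 of leucine and other large neutral amino acids, stood at 12.1 TPM, so that Slc7a8 was 21.4-fold above it. Slc7a6, which exchanges cationic for neutral amino acids, stood at 29.2 TPM. Slc7a11, the xCT exchanger that imports cystine for glutathione and exports glutamate, stood at 6.23 TPM, 41.4-fold under Slc7a8. Slc7a7 and Slc7a10, the latter a carrier of small neutral amino acids, were under 1 TPM at 0.424 and 0.274 TPM. Summed over these 6 light chains, the level was 306 TPM, of which Slc7a8 held 84.3%, Slc7a6 9.52%, Slc7a5 3.94% and Slc7a11 2.03%. Slc3a2 was 0.910 times that sum. The other heavy chain, Slc3a1, and its partner Slc7a9, which together take up cystine and basic amino acids in kidney and gut, stood at 0.108 and 0.0385 TPM.

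**Figure D3:**
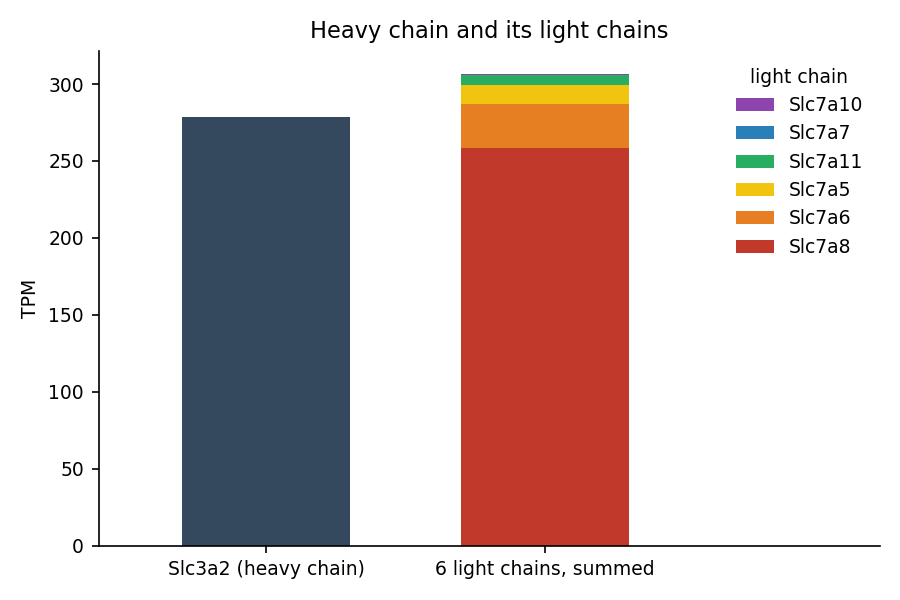
TPM of the heavy chain Slc3a2 (left bar) and of its 6 light chains stacked (right bar), in the 1 library. The bars reach 279 and 306 TPM, and Slc7a8 fills most of the right one.

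The sequence pattern linked to ATF4 was found in the promoters of Slc7a11, Slc1a4 and Slc7a7 and in no other member's promoter searched. ATF4 binds, with partner proteins, to elements that contain TGATGNAA, and this pattern was searched on both strands, where it reads TTNCATCA on the opposite one, in the 300 bases from 250 before to 50 after each start given by RefSeq (GRCm38.p6). It was found for 3 of the 30 members with a promoter in that table, or 10%, against 4.51% of 27025 genes. Of the 6 members listed as ATF4 targets that are in the table, 2 had a match, while Slc3a2, Slc38a2, Slc7a1 and Slc6a9 had none in this window. The matches are shown because they fell in Slc7a11, in Slc1a4 and in Slc7a7, whose levels differ widely. Slc7a11 had 2 matches, on opposite strands of chr3:50443642-50443690. Each line is read along the gene's strand, here the minus strand, and the match is in capitals.
Slc7a11, site nearer the start: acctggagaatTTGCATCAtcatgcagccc
Slc7a11, site farther from it: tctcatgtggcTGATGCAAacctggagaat
Slc1a4, chr11:20332699-20332728: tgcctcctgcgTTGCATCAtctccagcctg
Slc7a7, chr14:54417927-54417956: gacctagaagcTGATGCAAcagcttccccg
Slc7a7, chr14:54418067-54418096: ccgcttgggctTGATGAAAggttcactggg
Their levels were 6.23 TPM for Slc7a11, 42.4 TPM for Slc1a4 and 0.424 TPM for Slc7a7. A match is a run of letters and no measure of binding.

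Among the transporters of cationic amino acids, Slc7a1 was far above its relatives. Slc7a1, the CAT1 carrier of arginine, lysine and ornithine, stood at 80.1 TPM and was 15.5-fold above Slc7a2 at 5.18 TPM. Slc7a3, the third gene of this type, stood at 0.187 TPM. Its gene model shares 1086 bases with Snx12, at 24.9 TPM.

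In the SLC1 family, both carriers of neutral amino acids and 1 of the 3 carriers of glutamate and aspartate were expressed. Slc1a4, or ASCT1, an exchanger of serine, alanine, cysteine and threonine, stood at 42.4 TPM. Slc1a5, or ASCT2, a glutamine exchanger that also accepts serine, stood at 24.5 TPM, and the former was 1.73-fold above the latter. Slc1a3, the glutamate and aspartate carrier GLAST, came 6th of all members with 49.8 TPM. Slc1a1 and Slc1a2, its relatives best known from neurons and astrocytes, stood at 0.186 and 0.154 TPM. The upstream sequences of Slc1a3 and Slc1a1 are shown because they run against the CpG content seen over the members, described further on. They are the 250 bases before the RefSeq start in GRCm38.p6, read along the gene's strand, with CpG dinucleotides in capitals. That of Slc1a3, on the minus strand at chr15:8710808-8711057, has 2 CpG, and that of Slc1a1, on the plus strand at chr19:28834885-28835134, has 27.
Slc1a3: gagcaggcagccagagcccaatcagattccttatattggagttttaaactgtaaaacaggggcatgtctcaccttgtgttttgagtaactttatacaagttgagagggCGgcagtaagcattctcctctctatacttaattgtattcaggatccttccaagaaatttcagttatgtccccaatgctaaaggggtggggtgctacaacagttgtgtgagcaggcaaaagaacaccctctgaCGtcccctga
Slc1a1: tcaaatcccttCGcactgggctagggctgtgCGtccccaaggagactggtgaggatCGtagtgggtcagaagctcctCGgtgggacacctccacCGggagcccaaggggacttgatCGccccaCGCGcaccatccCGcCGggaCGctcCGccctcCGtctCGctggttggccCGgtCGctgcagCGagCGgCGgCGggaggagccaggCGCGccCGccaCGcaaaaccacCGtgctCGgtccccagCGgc

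Of the SLC6 members, the taurine and glycine carriers were expressed. Slc6a6, which takes up taurine, an osmolyte made from cysteine, stood at 144 TPM (ENSMUSG00000030096, chromosome 6, 91684048 to 91759063). Slc6a9, the glycine carrier GLYT1, stood at 15.7 TPM, 9.18-fold lower. Slc6a14, a carrier of neutral and cationic amino acids, and Slc6a15, a neuronal carrier of neutral ones, stood at 0.123 and 0.0543 TPM.

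The sodium-coupled SLC38 carriers of the cell surface spanned the widest range of any group. Slc38a2, the SNAT2 carrier of small neutral amino acids, stood at 179 TPM (ENSMUSG00000022462, chromosome 15, 96687392 to 96699728). The related Slc38a4 stood at 8.54 TPM and Slc38a1 at 0.170 TPM. These 3 genes lie side by side on chromosome 15, Slc38a1 at 96571418 to 96643438 and Slc38a4 at 96994816 to 97055956. Slc38a1 ends 43953 bases from Slc38a2, yet their levels were 1052-fold apart. Slc38a3 and Slc38a5, carriers of glutamine, asparagine and histidine, stood at 2.35 and 0.0102 TPM, the latter the lowest of all 39 members. The 250 bases upstream of Slc38a2 and Slc38a5, the 2 ends of this group in level, are shown with CpG in capitals. That of Slc38a2, on the minus strand at chr15:96699729-96699978, has 30 CpG. That of Slc38a5, on the plus strand at chrX:8271131-8271380, has 8. CpG number was not in step with level over the group, as Slc38a4, at 8.54 TPM, has 3 to 5 before its 3 starts.
Slc38a2: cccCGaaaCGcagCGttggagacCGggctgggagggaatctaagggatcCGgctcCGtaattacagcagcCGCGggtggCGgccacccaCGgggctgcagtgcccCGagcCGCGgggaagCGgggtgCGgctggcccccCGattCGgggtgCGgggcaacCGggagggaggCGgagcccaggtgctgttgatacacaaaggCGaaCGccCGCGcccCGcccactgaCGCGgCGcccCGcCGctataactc
Slc38a5: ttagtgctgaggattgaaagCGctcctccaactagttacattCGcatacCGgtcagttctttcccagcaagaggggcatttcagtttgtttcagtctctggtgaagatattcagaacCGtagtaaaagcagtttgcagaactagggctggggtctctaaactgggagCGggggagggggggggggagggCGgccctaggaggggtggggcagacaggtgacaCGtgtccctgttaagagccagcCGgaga

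Over the members, promoters of genes at 1 TPM or more had a higher median CpG content than those of genes under 1 TPM, with exceptions. The ratio of observed to expected CpG in the 250 bases upstream, where 1 means as many as the C and G content would give, had a median of 0.690 over the 21 members at 1 TPM or more that are in the promoter table. It was 0.463 over the 9 members under 1 TPM and 0.403 over all genes of that table. Slc1a3 had a ratio of 0.160 at 49.8 TPM and Slc7a11 one of 0.172 at 6.23 TPM. Slc38a4 had a ratio of 0.379 at 8.54 TPM, under the 0.455 of Slc38a5 at 0.0102 TPM. Slc1a1 had a ratio of 0.873 at 0.186 TPM. For genes with several starts the highest ratio was used. No test was made of this difference. Genes other than the members were not split by level, so whether it is particular to the transporters is not known. Slc6a6 is among the members not in the promoter table.

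**Figure D4:**
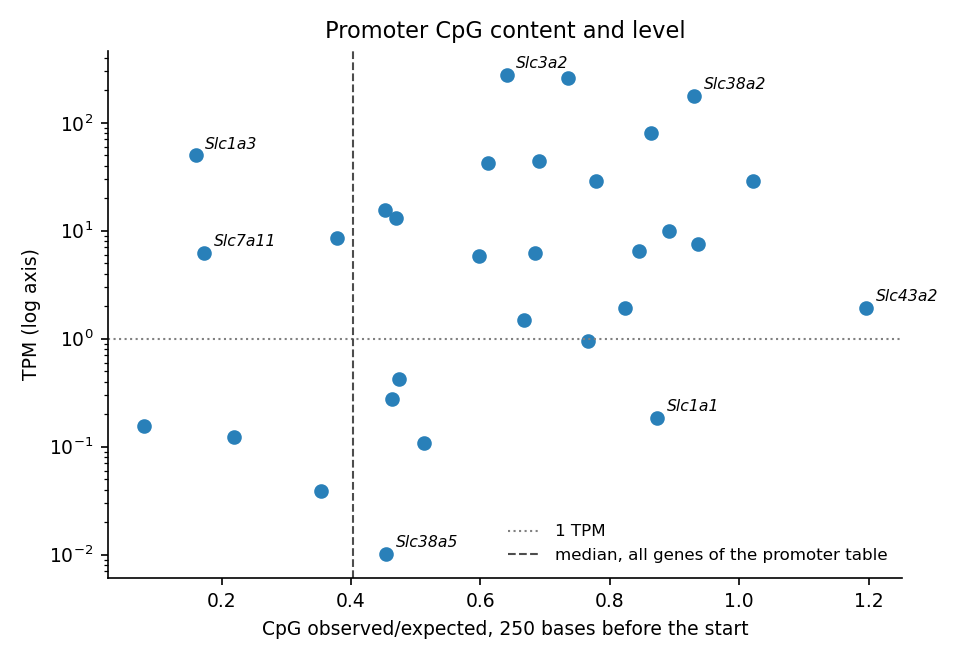
TPM on a log axis against the ratio of observed to expected CpG in the 250 bases before the start, 1 point for each of the 30 members in the promoter table; the dashed line is the median of 0.403 over all genes of the table and the dotted line marks 1 TPM. At low ratios, Slc1a3 lies high and Slc7a11 lies near the median of 6.20 TPM over all 39 members, and Slc1a1 lies low at a high ratio.

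The SLC36 carriers and the remaining SLC38 carriers, several of them lysosomal, ranged from 0.0807 to 44.2 TPM. Slc38a7, which exports glutamine and asparagine from the lysosome, stood at 5.84 TPM. Slc38a9, the lysosomal arginine sensor that acts on mTORC1, stood at 1.48 TPM. The proton-coupled carriers Slc36a4 and Slc36a1 stood at 6.52 and 6.20 TPM, a ratio of 1.05. Slc36a2, a proline and glycine carrier whose gene lies 19222 bases from Slc36a1, stood at 0.0807 TPM, 76.9-fold below it. Slc38a10 and Slc38a6, whose substrates are less well defined, were higher at 44.2 and 28.6 TPM. The Ragulator and Rag genes, which anchor mTORC1 at the lysosome next to Slc38a9, had a median of 44.9 TPM. Of these 9 genes, 7, or 77.8%, were at 1 TPM or more, against 55.9% of coding genes. Lamtor2, Lamtor1, Lamtor4 and Rraga were highest at 87.1, 70.6, 67.3 and 54.9 TPM, and Rragd and Rragb lowest at 0.0920 and 0.0243 TPM.

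The uniporters were the group with the lowest maximum among those with 3 members. Slc43a2 and Slc43a1, which let large neutral amino acids pass, stood at 1.94 and 0.961 TPM. Slc16a10, a carrier of aromatic amino acids, stood at 1.91 TPM.

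The 3 sideroflexins were the most even group of 3. Sfxn1, the mitochondrial serine carrier, stood at 7.61 TPM, Sfxn2 at 9.99 TPM and Sfxn3, a close relative of Sfxn1, at 13.1 TPM. Sfxn3 was 1.72-fold and Sfxn2 1.31-fold above Sfxn1. The gene model of Sfxn3 lies within the span of Pdzd7, at 0.611 TPM.

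Serine can enter by several of these carriers, and its synthesis enzymes were expressed beside them. Of 11 members listed as carriers of serine, 7 were above 5 TPM. At 5 TPM or more stood 15 of the 28 other members and 42.4% of coding genes. The remaining 4 on the serine list, Slc7a10, Slc38a1, Slc6a14 and Slc38a5, were under 1 TPM. The share of the serine list at 1 TPM or more, 63.6%, lay beside 67.9% of the 28 other members and 55.9% of coding genes. The median of the 11 was 8.54 TPM, against 5.51 TPM over the other members. The 11 include the 3 sideroflexins, carriers of the mitochondrion and not of the cell surface, all above 5 TPM. Without them the middle of the list would fall between Slc38a4 at 8.54 TPM and Slc7a10 at 0.274 TPM. The value of 8.54 TPM is therefore not a median of surface carriers. Slc38a2, Slc1a4 and Slc1a5 led the list. The serine synthesis enzymes Phgdh, Psph and Psat1 stood at 43.3, 34.9 and 33.4 TPM. Slc38a2 was thus 4.13-fold above Phgdh, Slc1a4 was 0.979 times Phgdh, and Phgdh was 5.70-fold above the mitochondrial carrier Sfxn1. Slc7a8, which also accepts small neutral amino acids, was not on the serine list.

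**Figure D5:**
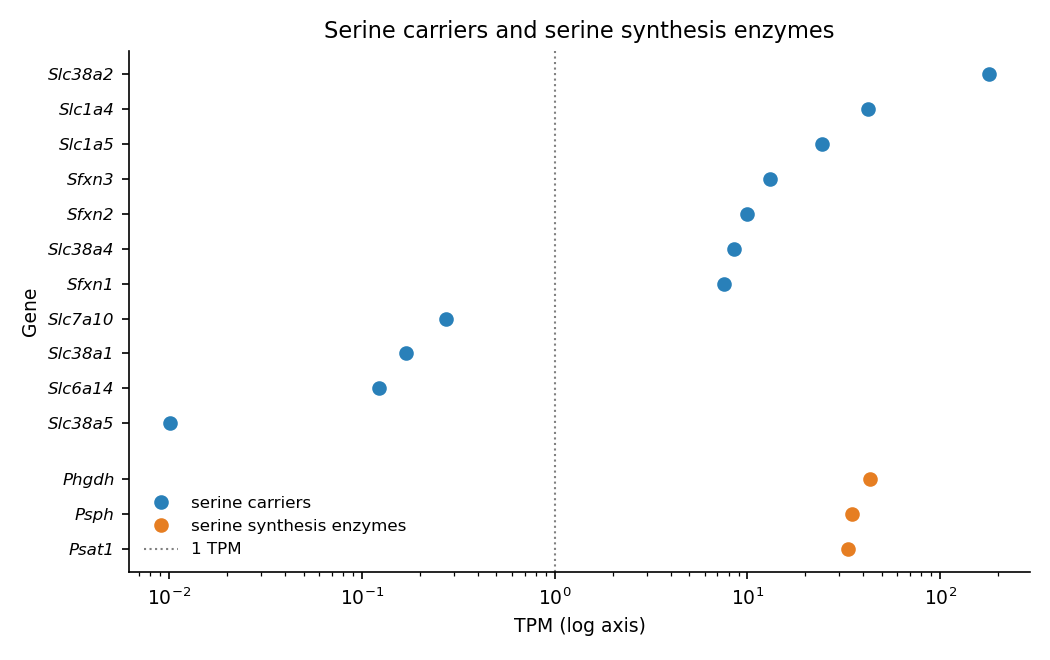
TPM on a log axis of the 11 serine carriers (blue) and the 3 serine synthesis enzymes (orange), 1 point per gene in the 1 library; the dotted line marks 1 TPM. The enzymes lie between 33.4 and 43.3 TPM, while the carriers run from 0.0102 to 179 TPM.

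Members known as ATF4 targets stood higher as a list than the rest. Of the 9 such members, 8, or 88.9%, were at 1 TPM or more, against 18 of 30, or 60%, of the others and 55.9% of coding genes. The medians were 24.5 TPM for the list and 2.14 TPM for the others. The list was drawn up with earlier results of these data known, and no test was made. These 9 were Slc3a2, Slc38a2, Slc7a1, Slc1a4, Slc1a5, Slc6a9, Slc7a5, Slc7a11 and Slc7a3, of which Slc7a3 alone was under 1 TPM. Slc7a8 and Slc6a6, the 2nd and 4th highest members, were not on that list. Among regulators of the carriers, Atf4 stood at 127 TPM. Bsg, a partner of monocarboxylate carriers, stood at 252 TPM. Cd44, whose variant protein stabilises xCT, stood at 64.7 TPM. Nfe2l2, which encodes NRF2, the activator of xCT in oxidative stress, stood at 35.7 TPM. The kinase Eif2ak4, or GCN2, which senses amino acid lack, and Nedd4l, a ubiquitin ligase, were lowest at 6.26 and 4.58 TPM.

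Genes of amino acid metabolism were expressed as well. The 5 listed genes of glutathione synthesis, glutathione use and thioredoxin reduction had a median of 89.2 TPM, against 6.23 TPM for the cystine importer Slc7a11. Gclm and Gclc, the subunits of glutamate-cysteine ligase, stood at 222 and 89.2 TPM. Gpx4, which uses glutathione against lipid peroxides, stood at 156 TPM. Txnrd1, which encodes thioredoxin reductase, stood at 41.7 TPM, and Gss, or glutathione synthetase, at 30.6 TPM. Of 9 listed genes of glutamine, asparagine, ornithine, arginine, serine and folate metabolism, 8 were at 1 TPM or more. That is 88.9%, against 55.9% of coding genes. The highest was Oat, which makes glutamate semialdehyde from ornithine, at 165 TPM. Shmt1, which takes a carbon unit from serine, stood at 40.2 TPM, and Odc1, which makes putrescine from ornithine, at 25.0 TPM. The arginase genes Arg2 and Arg1 were lowest at 1.34 and 0.305 TPM.

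Set among all solute carriers, the leading members were near the top. Of 389 coding genes with an Slc symbol, 36 of them members, Slc3a2 ranked 2nd and Slc7a8 3rd, after the adenine nucleotide carrier Slc25a5 at 544 TPM. Slc38a2 ranked 6th and Slc6a6 7th, and 11 members were among the 50 highest. The 36 members held 25.4% of the TPM of all Slc genes. The median of the 353 other Slc genes was 1.03 TPM, and 50.1% of them were at 1 TPM or more. Of 33 further amino acid transporters that are not members, 12, or 36.4%, were at 1 TPM or more, against 55.9% of coding genes. This list and the members were chosen with earlier results of these data known, and what the choice adds to their difference in level was not tested. The median of the 33 was 0.222 TPM. They were led by the mitochondrial glutamate carrier Slc25a22 at 20.3 TPM, Slc25a38, a mitochondrial glycine carrier, at 15.6 TPM, the lysosomal histidine carrier Slc15a4 at 12.5 TPM and Slc25a29, a mitochondrial carrier of basic amino acids, at 10.8 TPM. Listed at 0 were 5 of the 33.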

How the data were processed

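Of the series' 2 samples, the anagen sample was used. Its RNA was sequenced as paired ends on an Illumina instrument after an mRNA library kit, per the labels' protocols. The deposited values are TPM, per the file headers. The submitters' processing notes name Bowtie2 2.2.9, RSEM 1.2.30 and mm10, another name of GRCm38. The annotation, the filters and the use of strand are not stated in the sources used here. Values were read from the column named 1, as the anagen sample alone has a title numbered 1; this name is the only link. The other 11 columns of per-sample values were not used, so no comparison with telogen was made.

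Each ID was counted once, and values then summed to 1000000. Mitochondrial genes held 18.8% of TPM, which lowers every other value. Missing symbols came from a table of gene names, gene types and positions from RefSeq (GRCm38.p6), by symbol. For a symbol on several IDs the higher value was taken. A gene was called expressed at 1 TPM or more. Members and lists were chosen with earlier results of these data known. The text names every member and, from the comparison lists, all genes of lists of 5 or fewer and at most the 4 highest and 2 lowest of longer ones; cell type markers are given mainly as sums; Slc25a5 and the genes that overlap members were named after their values were seen. Some genes outside the members are not reported here. Promoter CpG content and gene neighbours were examined after the values were seen. Scripts were tested on simulated data. Python 3.11.15, pandas 2.3.3, numpy 2.4.6 and matplotlib 3.10.9 were used.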

Additional observations from a re-analysis of the deposited data

How the results depend on the processing

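With 1 library used, none could be left out. No paired analysis was possible because 1 library was used. Summing over gene IDs could change nothing, since each member has 1 ID, and rescaling could not change the share held by Slc3a2 or its ratio to the light chains. The alternative with Slc7a8 among the serine carriers was chosen after seeing the data and gave a median of 9.27 TPM.

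Rescaling raises every level by one factor and leaves ratios between genes as they are. Without mitochondrial genes and the 50 highest genes, the members' median was 10.7 TPM and that of serine carriers 14.8 TPM. Over protein-coding genes alone, with mitochondrial ones not taken out, these medians were 9.49 and 13.1 TPM. Restricted to members at 1 TPM or more, they were 12.6 and 13.1 TPM. The count at 1 TPM or more was 27 under both rescalings, with Slc43a1 added, and 22 members were at 5 TPM or more. Slc3a2 was 0.970 times the 2 highest light chains. All 39 members were above 0, but with the depth unknown, levels under 1 TPM may rest on few reads, and so may folds against them.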

Other observations

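Among the members under 1 TPM, several share gene models with higher neighbours, and whether the authors' counting used strand is not stated. Slc7a7 shares 228 bases with Oxa1l, at 16.8 TPM, and Slc3a1 shares 1731 bases with Prepl, at 5.79 TPM. Slc1a1 shares 1755 bases with the pseudogene Gm5822, at 3.81 TPM. The part of these neighbours in the low values was not tested.

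The SLC7 genes Slc7a7 and Slc7a8 lie 302146 bases apart on chromosome 14, and their levels were 608-fold apart.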
